A study of Mus musculus with 4 samples.

Results

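The families that make or read methyl marks on chromatin are represented here by 9 genes. They are the DNA methyltransferases Dnmt1, Dnmt3a and Dnmt3b, the replication-coupled recruiter Uhrf1, the methyl-CpG-binding domain proteins Mbd2, Mbd3 and Mbd4, and the histone methyltransferases Ezh2 and Suv39h1. They were taken by gene name from the non-control probes of the array, and 13 of its 41174 gene probes carry them (9 of 28786 gene names). Dnmt3a has 3 probes, Uhrf1 and Mbd2 have 2 each, and the other 6 genes have 1 each. Total RNA from liver of C57BL/6J mice, a standard inbred strain, was hybridised to 4 two-colour Agilent arrays on 1 slide. The 4 conditions were livers of food-deprived (FD) mothers, control mothers, FD fetuses and control fetuses, with RNA pooled from 5 to 10 animals per the series' design text. Both arrays of a comparison carried FD against control RNA with the dyes exchanged, FD in Cy5 on the first array and in Cy3 on the second. The labels give chow and water without restriction for housing; how long food was withheld, the gestational stage and fetal sex were not stated in the sources used here. The design text speaks of pooled RNA of each condition that was dye-swapped, whereas the sample titles number the pools 1 and 2. The arrays of a comparison were therefore read as the same pools hybridised again, which the labels do not settle; if they carried separate pools, n would be 2. Read as the same pools, a condition is 1 sample, no significance test was made, and the spread between arrays says nothing of the spread between animals.

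Methylation of cytosine in CpG pairs is copied after each round of DNA synthesis. Uhrf1 recognises hemimethylated DNA behind the replication fork and brings in Dnmt1, the maintenance enzyme, while Dnmt3a and Dnmt3b place new marks. Ezh2 is the catalytic subunit of Polycomb repressive complex 2 and methylates lysine 27 of histone H3, and Suv39h1 methylates lysine 9 of the same histone in heterochromatin. In the fetus the liver is also the main site of blood formation, so it holds many dividing blood precursors that the adult organ lacks.

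None of the 9 genes passed the rule for a change with food deprivation in either liver, and the differences that passed it lay between the control pools of mother and fetus. The rule asked for a mean of 2-fold or more over the 2 arrays of a comparison, with both arrays past 1.5-fold on the same side. By that rule 0 of the 9 measured members were called in the mother, where 3.43% of 16141 measured genes were (1.55% higher and 1.88% lower). In the fetus 0 of 9 were called, against 0.737% of 18051 genes (0.471% higher and 0.266% lower). At these background shares a count of 0 among 9 genes is no result about the members. In the control pools, 5 of the 9 were lower in the mother than in the fetus (Dnmt1, Uhrf1, Mbd4, Ezh2 and Suv39h1) and 0 were higher. Over all 18081 genes measured there 19.4% were called, 10.2% lower in the mother and 9.21% higher.

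All values below are log2 values after background correction and normalisation, and a gene with several probes is represented by its brightest one. A ratio is FD over control. A level is the log2 intensity of one channel, which has no absolute unit and is compared only within a probe. The typical SD between the 2 arrays of a comparison, taken over all measured genes, was 0.16 for the maternal ratio, 0.15 for the fetal ratio, 0.13 for their difference and 0.22 for the control-level difference. Spots well above background made up 53.2% to 69.7% of the gene spots, depending on array and dye, and 0 were saturated. As a check of the labels, all 8 hepatocyte markers on the array were well above background in all 4 pools, and Afp, the fetal serum protein alpha-fetoprotein, gave -6.78 and -6.98 for the control mother minus the control fetus.

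**Figure D1:**
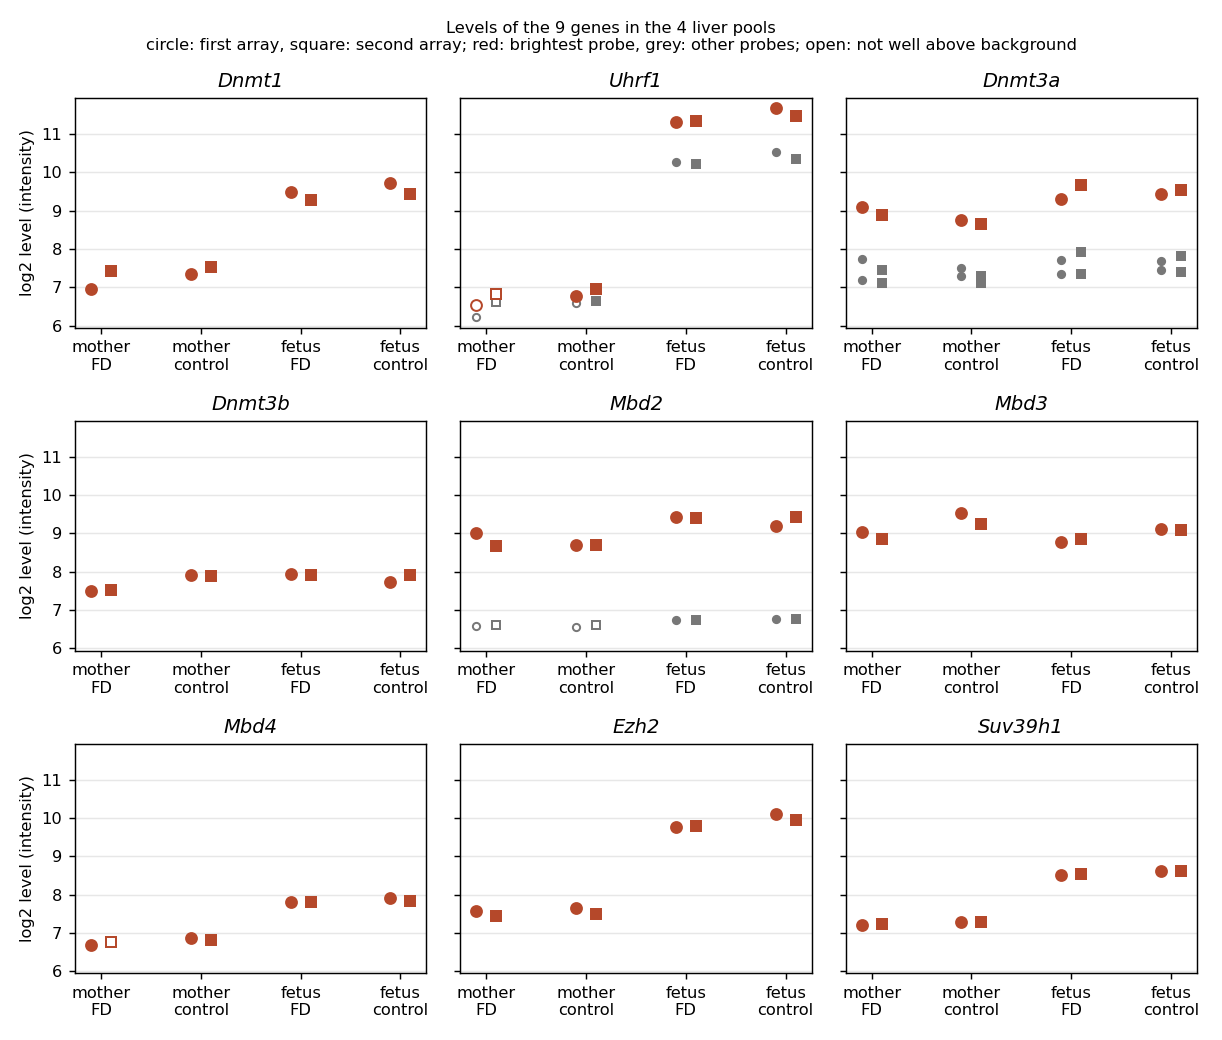
Normalised log2 intensity (vertical axis) of the 9 genes in the FD and control pools of mothers and fetuses (horizontal axis), with circles for the first and squares for the second array, the brightest probe in red and other probes in grey. Open symbols were not well above background. Uhrf1, Ezh2 and Dnmt1 lie well below their fetal levels in both maternal pools, while Dnmt3b and Mbd3 lie at similar heights in all 4.

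Dnmt1 was read by a single 60-base probe, A_51_P195573, whose match on the minus strand of mm7 spans 369 genomic bases at chr9:20784085-20784453, so that it crosses an intron. The probe is shown, with 2 others that cross introns, because only spliced RNA matches it in full. The Ezh2 probe, A_51_P248067, spans 896 bases on the minus strand of mm7 at chr6:47568744-47569639. The brightest Dnmt3a probe, A_52_P76146, spans 782 bases on the plus strand at chr12:3825243-3826024.
Dnmt1 probe: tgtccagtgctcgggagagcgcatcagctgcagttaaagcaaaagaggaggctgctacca
Ezh2 probe: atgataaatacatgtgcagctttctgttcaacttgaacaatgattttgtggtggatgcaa
Dnmt3a probe: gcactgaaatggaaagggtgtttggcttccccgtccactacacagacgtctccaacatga

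Dnmt1 levels on the 2 arrays were 6.96 and 7.43 in FD mothers and 7.33 and 7.53 in control mothers. They were 9.497 and 9.29 in FD fetuses and 9.71 and 9.44 in control fetuses. All 4 maternal values thus lay below all 4 fetal ones. The control level of the mother minus that of the fetus was -2.38 and -1.91 on arrays of equal dye orientation, or 4.42-fold lower. The FD over control ratios of Dnmt1 were -0.37 and -0.10 in the mother and -0.21 and -0.16 in the fetus, all below 0 but within 1.5-fold of it. With array medians in place of the intensity-dependent (loess) fit, the fetal mean of Dnmt1 was 0.01 instead of -0.18, so the sign of the fetal ratio depends on the scaling.

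Uhrf1 had the widest contrast of the 9 genes. Its brighter probe, A_52_P314705, gave 6.52 and 6.82 in FD mothers and 6.78 and 6.96 in control mothers. In FD fetuses the levels were 11.31 and 11.34, and in control fetuses 11.67 and 11.46. The control mother minus the control fetus gave -4.89 and -4.50, or 25.9-fold lower, and 0.337% of all measured genes had a more negative value. The second probe, A_51_P491742, gave -3.94 and -3.70, where the maternal control channel was well above background on 1 of 2 arrays. The probes therefore gave the same direction, and the mean over both was -4.26.

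In the mother Uhrf1 sat at the edge of detection. The FD channel was not well above background on either array and the control channel was on both, so the size of the change is uncertain. The mean ratio put FD mothers 1.15-fold lower, which is the measured value and not an established minimum. The measured ratios were -0.25 and -0.14. The net signals before normalisation, spot minus local background, were 11.7 and 8.67 in the FD channel and 16.9 and 54.4 in the control channel. In the fetus, where the gene was bright, the ratios were -0.36 and -0.12 for this probe and -0.27 and -0.12 for the other, and the -0.36 (1.29-fold), shared with Ezh2 at this rounding, is the largest single-array value of the members in the fetus.

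Dnmt3a was the only member with both maternal arrays above 0. Its levels were 9.08 and 8.89 in FD mothers and 8.77 and 8.66 in control mothers. The maternal ratios of 0.32 and 0.23 make a 1.21-fold difference, short of the rule. A second probe, A_52_P169048, gave 0.25 and 0.18, and the last, A_52_P30497, gave -0.11 and -0.01. The 3 probes of Dnmt3a thus disagreed in sign in the mother. In the fetus its levels were 9.31 and 9.67 in FD and 9.42 and 9.54 in control, and the ratios were -0.11 and 0.12, which averages to 0.01. The control level of mother minus fetus was -0.66 and -0.88 on the brightest probe. The other probes gave -0.20 and -0.53 (A_52_P169048) and -0.16 and -0.29 (A_52_P30497), so that the contrast kept its sign but differed in size, each time under 2-fold.

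Dnmt3b, the other de novo enzyme, showed the widest gap between the maternal and fetal ratios among the 9. Its maternal levels were 7.49 and 7.53 in FD against 7.91 and 7.90 in control mothers. The fetal levels were 7.94 and 7.91 in FD against 7.73 and 7.92 in control fetuses. The maternal ratios were -0.41 and -0.36, a 1.31-fold lower mean, and the fetal ones were 0.21 and -0.01. The difference of mother minus fetus was -0.62 and -0.35, with a mean of -0.49, which did not reach the rule that 2.98% of 15590 genes passed for that difference. Of all genes, 8.28% had a more negative difference. The call depended on the treatment of the signal: with the scanner software's processed signals the maternal mean was -1.09 and the difference -1.24, both past the rule. Its control level hardly differed between mother and fetus, at 0.17 and -0.02.

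**Figure D2:**
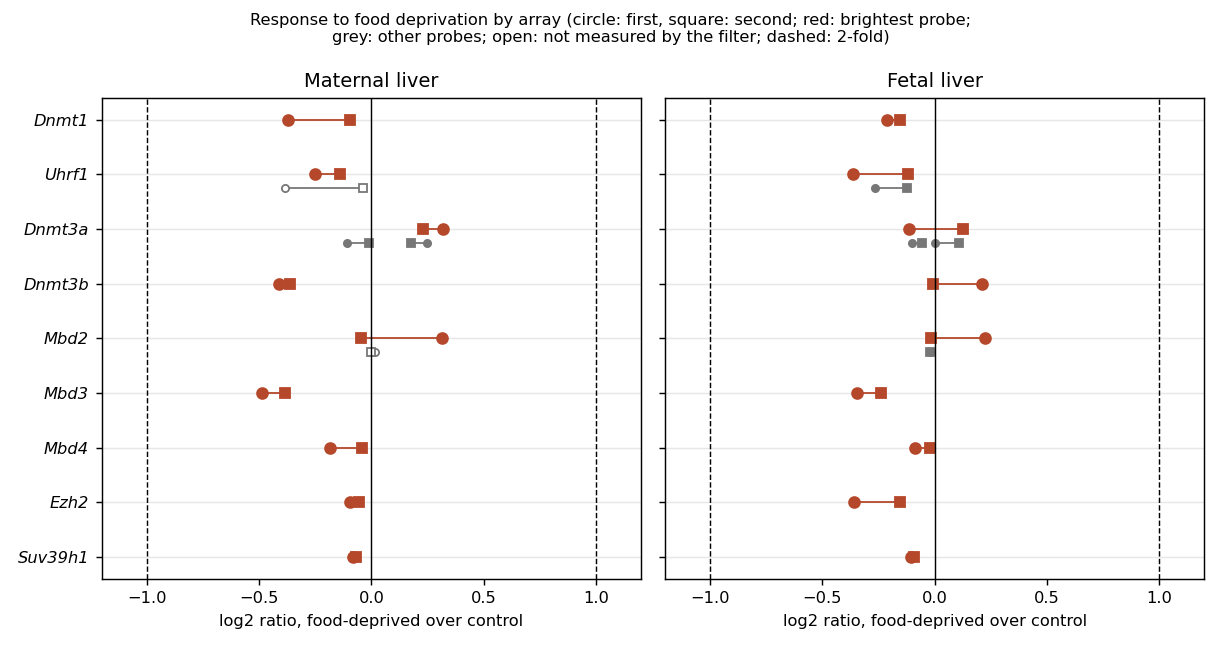
Log2 ratio of FD over control (horizontal axis) for each member (rows) in maternal (left) and fetal (right) liver, with a circle for the first array, a square for the second and a line joining them. Red marks the brightest probe, grey the other probes and open symbols probes that did not count as measured. No point reaches the dashed 2-fold lines, and Mbd3 lies left of 0 on all 4 arrays, as do Dnmt1, Uhrf1, Mbd4, Ezh2 and Suv39h1. The share of all genes left of 0 on all 4 arrays was not counted.

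Among the methyl-CpG-binding domain proteins, Mbd3, a subunit of the NuRD histone deacetylase and remodelling complex, had ratios below 0 on all 4 arrays. So did Mbd4, Dnmt1, Uhrf1, Ezh2 and Suv39h1, which makes 6 of the 9 members. The share of all genes below 0 on all 4 arrays was not counted, so that count is no result about the members. With median centring the fetal means of Dnmt1, Mbd4 and Suv39h1 lay above 0, as did the maternal mean of Ezh2. Mbd3 levels were 9.05 and 8.87 in FD mothers and 9.54 and 9.25 in control mothers. In FD fetuses they were 8.78 and 8.85, and in control fetuses 9.13 and 9.09. The FD and control levels did not overlap in either liver, and neither did those of Mbd4 and Suv39h1. The share of all genes without overlap was not counted, so this is no result about Mbd3, Mbd4 or Suv39h1. The ratios were -0.49 and -0.38 in the mother (1.35-fold lower) and -0.35 and -0.24 in the fetus (1.22-fold lower), neither past the rule. The maternal -0.49 is the largest ratio of any member on a single array (1.40-fold). Of all measured genes, 8.92% had a lower maternal mean and 5.02% a lower fetal one. The mean ratio of Mbd3 was below 0 in all 11 settings run, the main one and single arrays included, from -0.52 to -0.38 in the mother and from -0.36 to -0.11 in the fetus. The filters, the probe choice and the call rule could not change this ratio, and the single arrays repeat the values above. Only the signal treatments and the normalisation could have moved it. The control level of mother minus fetus was 0.41 and 0.16, and it averaged -0.25 when the arrays were not normalised to each other.

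Mbd2, which recruits the same complex to methylated DNA, had levels of 9.001 and 8.66 in FD mothers and 8.69 and 8.71 in control mothers on its brighter probe, A_52_P347287. In FD fetuses the levels were 9.43 and 9.41, and in control fetuses 9.20 and 9.42. The ratios were 0.31 and -0.05 in the mother and 0.23 and -0.02 in the fetus. Their sign changed with the dye orientation in both livers. The control level of mother minus fetus was -0.52 and -0.71, a 1.53-fold lower mean that did not reach the rule. The dimmer probe, A_51_P256337, was not well above background in the mother and gave -0.02 and -0.02 in the fetus. Its control level measured 1.13-fold lower in the mother, which is not an established minimum.

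Mbd4, a glycosylase that removes thymine from mismatches at CpG sites, had levels of 6.69 and 6.77 in FD mothers and 6.87 and 6.81 in control mothers. The levels were 7.81 and 7.81 in FD fetuses and 7.90 and 7.83 in control fetuses, all above the maternal ones. The maternal ratios were -0.18 and -0.04, with the FD channel well above background on 1 of 2 arrays, and the fetal ratios were -0.09 and -0.02. Its control level of mother minus fetus was -1.03 and -1.02, which is 2.03-fold lower and just past the threshold. Under median centring the mean was -0.95 and Mbd4 was no longer called, whereas it was -1.57 without the offset and -2.28 with the scanner software's processed signals.

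Ezh2 and Suv39h1 gave nearly the same control contrast on both arrays. Ezh2 levels were 7.56 and 7.45 in FD mothers, 7.66 and 7.50 in control mothers, 9.75 and 9.80 in FD fetuses and 10.11 and 9.96 in control fetuses. The control level of mother minus fetus was -2.46 and -2.45, or 5.48-fold lower. The ratios with food deprivation were -0.10 and -0.05 in the mother and -0.36 and -0.15 in the fetus. Suv39h1 levels were 7.20 and 7.22 in FD mothers, 7.29 and 7.29 in control mothers, 8.52 and 8.53 in FD fetuses and 8.63 and 8.63 in control fetuses. The control contrast of Suv39h1 was -1.34 and -1.33, or 2.53-fold lower in the mother. Its ratios were -0.08 and -0.07 in the mother and -0.11 and -0.09 in the fetus.

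As a list, the members leaned to the lower side in both livers without any of them reaching the rule. In the mother 7 of 9 had both arrays below 0, against 38.7% of all measured genes, and their median was -0.11 against -0.01 over all genes. In the fetus 6 of 9 had both arrays below 0, against 30.9% of all genes, and the median was -0.10 against 0.00. With median centring the fetal means of Dnmt1, Mbd4 and Suv39h1 lay above 0 and the fetal member median was 0.07, while the median of all genes was 0.09 under that treatment. The difference of mother minus fetus had a median of 0.02 over the members and -0.02 over all genes, and 0 of 9 were called. The maternal and fetal ratios come from separate pools, but the control-level contrast and the ratios share the control pools.

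Few other listed chromatin genes passed the rule with food deprivation, as few genes did in general, and these counts are read as no result about chromatin genes. Of 104 such genes beside the members, 87 were measured in the mother and 90 in the fetus, and 0 were called in either, against the 3.43% and 0.737% of all genes given above. The difference of mother minus fetus was called lower for 2 of 87, against 1.75% of all genes. They were Gadd45a, a stress-induced gene linked to DNA repair and demethylation (mean -1.10), and Smyd3, a lysine methyltransferase (mean -1.12). Within the list of methyl-DNA binders and their complexes the maternal ratios ran from -0.44 for Mbd3 and -0.42 for the histone-binding subunit Rbbp4 to 0.51 for Mbd1. Within the Polycomb list the highest maternal ratio was 0.34, for Bmi1, and the fetal ratios ran from -0.26 for Ezh2 to 0.20 for Rnf2. In the list around DNA methylation, Pcna and Hells, a replication clamp and a remodelling enzyme, were lowest in the fetus at -0.42 each.

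Some genes of the methyl donor cycle, which makes and recycles the donor that all these enzymes use, passed the rule. In the fetus 3 of 14 measured genes of the cycle rose, against 0.471% of all genes. The list was chosen with earlier results of these data known, so setting it against all genes describes it and tests nothing. Mat1a, which makes S-adenosylmethionine in hepatocytes, gave ratios of 1.02 and 1.09. Gnmt, which uses up that donor by methylating glycine, gave 1.08 and 1.23, and Bhmt, which remethylates homocysteine from betaine, gave 1.35 and 1.75. In the mother 1 of 14 rose, against 1.55% of all genes. It was Mat2a, another form of the same synthetase, at 0.90 and 1.27. The difference of mother minus fetus was called lower for Bhmt (-1.65 and -1.62) and Gnmt (-1.10 and -1.47), so that these 2 genes differed between the livers in their response. The list's median was -0.07 in the mother and 0.23 in the fetus.

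The control-level contrast of the 5 members stood beside that of replication and blood genes. Of 24 measured DNA replication genes, 23 were lower in the control mother than in the control fetus (median -2.91), and all 15 mitosis genes were (median -2.90). Erythroid markers were lower for 11 of 11 (median -3.66) and granulocyte and monocyte markers for 7 of 7 (median -5.62). In the control mother the erythroid markers Epb42, Ermap and Rhag were not well above background on either array. Nor were Elane and Ngp of the granulocyte and monocyte list, so the size of the difference is uncertain for these 5 genes. Gata1 and Camp were well above background on 1 of the 2 arrays there. The summed erythroid level per array was 14182 and 13046 in FD mothers, 14991 and 13633 in control mothers, 143798 and 113998 in FD fetuses and 149790 and 151677 in control fetuses. The part of these cells in the members' contrast was not tested, and in bulk liver fewer cells of a type and less RNA per cell cannot be told apart. Partner genes of the members shared the direction in part. Pcna was 8.57-fold lower in the control mother, the deubiquitinase gene Usp7 2.35-fold, the Polycomb genes Suz12 and Mtf2 2.68-fold and 2.56-fold, and the heterochromatin protein gene Cbx5 2.26-fold. The NuRD genes Rbbp7, Hdac1, Rbbp4, Mta3 and Mta2 were 2.02-fold to 3.18-fold lower. Of the 89 other chromatin genes measured, 15 were called lower and 2 higher, the NuRD helicase Chd3 and the demethylase Kdm1b, with a median of -0.38. Over all genes measured in this comparison 10.2% were called lower and 9.21% higher, with a median of 0.03.

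**Figure D3:**
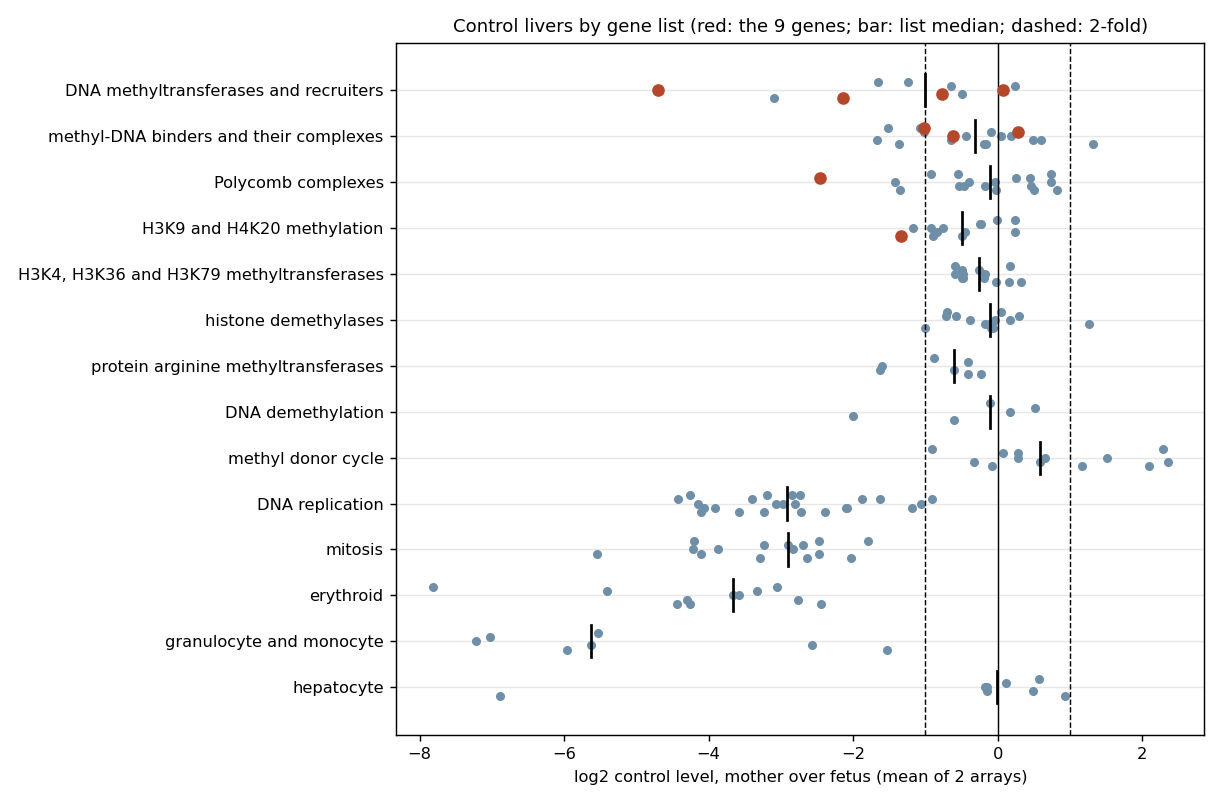
Log2 control level of mother over fetus (horizontal axis, mean of 2 arrays) for each measured gene of the lists (rows), with the 9 members in red, list medians as black bars and dashed lines at 2-fold. The replication, mitosis and blood lists lie far to the left. Ezh2, Dnmt1, Suv39h1 and Mbd4 lie within the range of the replication genes and Uhrf1 just left of it, whereas Dnmt3b and Mbd3 lie near 0.

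With food deprivation, replication and mitosis genes passed the rule in the mother but not in the fetus. In the fetus 23 of 24 replication genes had a mean below 0 (median -0.29) and 0 were called, and the erythroid list had 11 of 11 below 0 (median -0.20). The fetal means of Uhrf1, Ezh2 and Dnmt1, -0.24, -0.26 and -0.18, lay beside both list medians, with the median of all genes at 0.00. With median centring in place of loess these means were -0.01, -0.06 and 0.01, where the median of all genes was 0.09. The part of either list in these means was not tested. In the mother 5 of 13 mitosis genes fell (Cdc20, Birc5, Mki67, Ccnb2 and Aurka, 2.09-fold to 4.16-fold), as did 2 of 22 replication genes, Tk1 (5.04-fold) and Mcm6 (2.53-fold), against 1.88% of all genes. The maternal means of Dnmt1, Ezh2 and Suv39h1, at -0.23, -0.07 and -0.08, and that of Uhrf1, at -0.20 with FD signals not well above background, stood beside a median of -0.26 over the 22 replication genes and -0.58 over the 13 mitosis genes. Kupffer cell and macrophage markers were also lower in FD mothers, with 9 of 10 below 0 (median -0.52) and 2 called, Adgre1 (-1.16 and -1.09) and Cd5l (-1.01 and -1.05). Their summed level per array was 17077 and 15912 in FD mothers and 27839 and 25017 in control mothers, and the part of these cells in the maternal ratios was not tested.

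Promoter sequences are shown because 4 of the 5 members that were lower in the control mother carried an E2F-type match there, the motif of the factors that act on many replication genes. RefSeq's promoter table (GRCm38.p6, 250 bases before to 50 after a transcript start) held 14 promoters for 8 of the genes. The letters searched were TTTCCCGC, TTTGCCGC, TTTCGCGC and TTTGGCGC on both strands. A match was found in 4 of the 14 promoters, 1 each for Dnmt1, Uhrf1, Ezh2 and Suv39h1. None was found in the promoters of Dnmt3a, Dnmt3b, Mbd3 and Mbd4. Of all 32851 promoters of the same length 2.26% held one, and of the 3837 with at least 30 CG pairs 5.06% did. The first base of the match lay at -219 and 34 from the start in Dnmt1, -185 in Uhrf1, 4 in Ezh2 and -64 in Suv39h1. Below, capitals mark the match in the direction of the gene, and the Dnmt3b promoter, which has none, is added for comparison. A match describes these letters only and is neither a site nor a cause. The windows are chr9:20952574-20952873 (minus strand) for Dnmt1, chr17:56304063-56304362 (plus) for Uhrf1, chr6:47594981-47595280 (minus) for Ezh2, chrX:8074312-8074611 (minus) for Suv39h1 and chr2:153649199-153649498 (plus) for Dnmt3b.
Dnmt1 promoter: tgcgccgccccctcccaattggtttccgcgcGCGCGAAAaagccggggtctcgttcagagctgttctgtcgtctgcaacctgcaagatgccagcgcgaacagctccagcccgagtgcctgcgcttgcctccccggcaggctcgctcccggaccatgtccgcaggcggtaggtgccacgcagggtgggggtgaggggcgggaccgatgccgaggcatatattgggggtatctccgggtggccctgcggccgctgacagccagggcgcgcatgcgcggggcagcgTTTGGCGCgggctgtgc
Uhrf1 promoter: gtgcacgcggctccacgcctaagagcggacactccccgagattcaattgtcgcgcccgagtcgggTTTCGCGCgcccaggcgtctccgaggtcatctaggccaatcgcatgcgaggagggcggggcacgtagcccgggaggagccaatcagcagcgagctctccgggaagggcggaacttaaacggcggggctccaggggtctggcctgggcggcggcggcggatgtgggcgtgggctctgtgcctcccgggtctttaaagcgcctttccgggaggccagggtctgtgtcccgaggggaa
Ezh2 promoter: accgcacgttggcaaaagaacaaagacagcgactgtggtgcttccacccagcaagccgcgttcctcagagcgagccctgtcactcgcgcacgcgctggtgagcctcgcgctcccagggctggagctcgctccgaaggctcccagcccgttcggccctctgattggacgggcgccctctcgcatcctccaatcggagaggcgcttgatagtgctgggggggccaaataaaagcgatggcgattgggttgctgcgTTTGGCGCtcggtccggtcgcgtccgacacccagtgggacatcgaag
Suv39h1 promoter: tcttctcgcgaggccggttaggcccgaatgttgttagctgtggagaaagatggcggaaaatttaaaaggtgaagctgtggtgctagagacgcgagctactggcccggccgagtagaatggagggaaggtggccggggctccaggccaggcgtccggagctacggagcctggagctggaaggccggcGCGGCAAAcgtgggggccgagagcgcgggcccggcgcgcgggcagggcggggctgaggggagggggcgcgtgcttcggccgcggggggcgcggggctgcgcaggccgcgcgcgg
Dnmt3b promoter: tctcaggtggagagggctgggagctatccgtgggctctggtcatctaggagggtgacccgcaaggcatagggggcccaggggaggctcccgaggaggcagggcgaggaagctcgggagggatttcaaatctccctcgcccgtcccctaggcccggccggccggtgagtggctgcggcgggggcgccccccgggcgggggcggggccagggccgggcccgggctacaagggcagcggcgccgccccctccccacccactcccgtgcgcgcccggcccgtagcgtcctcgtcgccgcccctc

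These 5 windows held 30 to 37 CG pairs, against a median of 7 over all promoters. The CCAAT motif, searched on both strands, was present in 8 of the 14 promoters and in 37.41% of all. The other promoters of Dnmt1, Suv39h1 and Uhrf1 held no E2F-type match, so the match belonged to 1 of 3, 1 of 2 and 1 of 2 starts in those genes.

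The genes with the most similar values were looked up for the 3 members with the widest control contrast, by Euclidean distance over 6 values (the maternal and fetal ratios and the control-level differences of the arrays) among 15555 genes. Those named only by an accession, clone or predicted locus were passed over, so the genes given are the nearest with a symbol. Around Dnmt1 they were Arhgef39, Sox6, Abcb10, Was and Nsl1, at distances of 0.197 to 0.340. Around Ezh2 they were Ackr1, Mzb1, Nt5c3, Slc43a1 and Cdca7, at 0.111 to 0.209. Around Uhrf1 they were Gmpr, Bex3, Isg20, Fignl1 and Tmem40, at 0.363 to 0.483.

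The size of a maternal change depends on the treatment of dim spots. The offset of 50 added to each channel draws the ratio of a dim spot towards 0. Without the offset the maternal means were -0.62 for Uhrf1, -0.60 for Dnmt3b, -0.49 for Dnmt1 and -0.34 for Mbd4. The scanner software's processed signals gave -2.66, -1.09, -0.78 and -0.55 for the same genes, and Uhrf1 and Dnmt3b then passed the rule as lower in FD mothers, where 8.96% of all measured genes passed it. The Uhrf1 value rests on FD signals not well above background, so the size of its change is not established. The maternal mean of Suv39h1 was -0.08 with the offset, -0.15 without it and -0.37 with the processed signals. For the brighter genes the treatments differed less: the maternal mean of Mbd3 was -0.44 with the offset and -0.52 with the processed signals, and that of Dnmt3a was 0.27 and 0.44. In the fetus the processed signals moved no member past the rule.

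The control contrast between mother and fetus grew under the same treatments and kept its direction in all 5 called members. For Uhrf1 it was -5.56 without the offset and -6.70 with the processed signals, against -4.70 with the offset. Without the offset it was -2.52 for Dnmt1, -2.86 for Ezh2 and -1.75 for Suv39h1, and the processed signals gave -3.07, -3.27 and -2.14 for the same genes. The size of the contrast, more than its direction, thus depended on how dim maternal spots were treated.

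**Figure D4:**
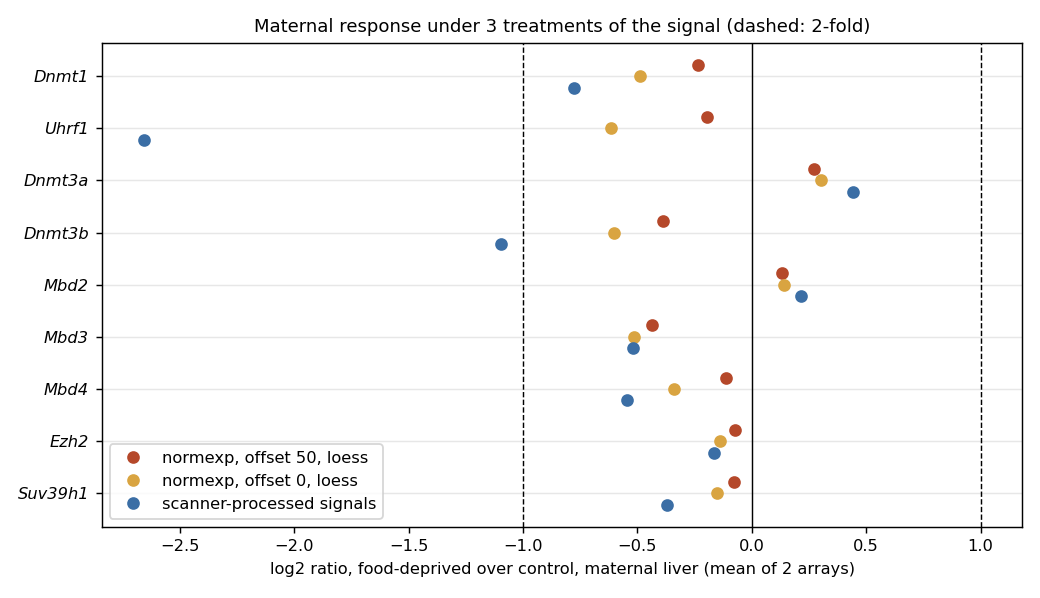
Mean log2 ratio of FD over control in maternal liver (horizontal axis) for each member (rows) under 3 treatments of the signal, normexp with an offset of 50 (red), normexp without an offset (yellow) and the scanner software's processed signals (blue). Uhrf1 and Dnmt3b cross the dashed 2-fold line with the processed signals, and Mbd3, Mbd2 and Ezh2 hardly move.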

How the data were processed

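Fluorescence was measured on 4 two-colour arrays, 2 for the mother and 2 for the fetus, each with food-deprived and control liver RNA. The deposited scanner files hold intensity values per spot (mean signal, local background and processed signals) and a log10 ratio of the processed signals, red over green, per the file headers; the ratio was not used. The scanner software was Agilent Feature Extraction, version 9.5.1.1 per the file headers and 9.5.3.1 per the submitters' processing notes. With limma 3.58.1 in R 4.3.3, intensities were corrected by normexp (offset 50), normalised by loess within each array (control spots at zero weight), and given as log2 of food-deprived over control. Levels were scaled between arrays by Aquantile. Outlier spots (215 to 257 gene spots per array) were left out. A measured probe had 1 channel, on both arrays of its comparison, well above background (for control levels, the control channel in mother or fetus). Calls needed a mean of 2-fold and 1.5-fold on each array. The arrays of a comparison were taken as a dye swap of the same pools, so they count as 1 replicate and no p-value is given. The calling steps were tested on simulated data. All 13 member probes are named. Of the other listed genes, those past the rule and the 2 highest and 2 lowest of each list could be named. The members and lists were chosen with earlier results of these data known. Promoters came from RefSeq (GRCm38.p6); probe coordinates are those of the files (mm7). Alternatives were the signal treatment, normalisation, filters, probe choice, call rule and each array alone.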

Additional observations from a re-analysis of the deposited data

How the results depend on the processing

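No paired analysis was possible because each number marks 1 array and 1 dye orientation in each comparison, so a number cannot be told apart from the dye; the arrays were read as the same pools and not tested. Among the 9 genes, the count of changed members was 0 in the mother, the fetus and the difference under every alternative run, except that the scanner software's processed signals gave 2 lower (Dnmt3b and Uhrf1) in the mother and 2 in the difference. The count lower in the control mother stayed between 4 (median centring, without Mbd4) and 7 (no scaling between arrays, or a looser rule of 1.5-fold on average, both adding Dnmt3a and Mbd2). With either array alone the counts were 0, 0, 0 and 5. Without scaling between arrays the median of all genes moved to -0.17 from 0.03, and the share of calls that were higher in the mother to 24.7% from 47.5%. Over all genes, calls in the mother numbered 554, against 1447 with processed signals, 129 with median centring and 1603 with the looser rule. In the fetus they numbered 133, against 397 with processed signals and 488 with the looser rule, in the difference 465, against 1208 and 1528, and in the control level 3506, against 7312 and 6430. Median centring changed the share of higher calls to 34.9% from 45.1% in the mother, to 75.8% from 63.9% in the fetus and to 16.1% from 41.3% in the difference. No called value changed sign. Dim spots limit the maternal values of Uhrf1, Dnmt3b, Mbd4, Dnmt1 and Suv39h1, and the number of arrays limits the values of all members.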
